A study of Mus musculus with 933 samples.

Results

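The data described here are transcript levels of 68 single mouse morulae of strain FVB, 34 made with testis sperm and 34 made with cauda sperm, out of 933 embryos in the whole series. Each embryo was made by intracytoplasmic sperm injection, in which a single sperm is placed directly into an egg, and none of these embryos was injected with RNA, per the labels. The testis embryos received sperm from the testis, which have not passed the epididymis, and the cauda embryos received sperm from the cauda, its far end, where mature sperm are stored. Members were all libraries of the table for these 2 groups, in 4 sessions called A to D here in the order of their numbers in the labels, with 10 embryos of each group in session A and 8 of each in the other sessions. Further embryos of the series serve for comparison: 29 morulae of caput sperm (from the upstream end of the epididymis) with their own 31 cauda morulae, 34 testis and 33 cauda 4-cell embryos, and 28 testis and 29 cauda blastocysts, all of strain FVB and without injected RNA. The labels do not say how many males or females a session used, so p-values measure the spread between embryos, which may share parents within a session. The notes on growth and collection give the same hour for every stage, so the stage label was used and the hour of harvest of these morulae is not given in the sources used here.

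A morula is the compacted ball of cells that precedes the blastocyst. Its outer cells polarise and turn into trophectoderm, the precursor of the placenta, while its inner cells keep the pluripotency network. By this stage transcripts stored in the egg and those of the first wave of embryonic transcription are being lost, and genes of junctions, metabolism and trophectoderm are switched on. Sperm acquire most of their small RNA content during passage through the epididymis, and the series compares embryos whose sperm left that path at different points.

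Values are in TPM, the share of a library's transcripts that each gene takes, so sequencing depth is unknown and a difference is relative to all other genes. In 67 of the libraries between 9781 and 11186 genes reached 1 TPM. Cauda embryo 18 of session B reached 1 TPM for 4864 genes, and its median correlation with the other libraries was 0.663, against 0.872 to 0.940 for the rest. Counts of calls are therefore given with and without this library, as are several of the gene lists and some of the leading genes. Genes at 1 TPM averaged 10638 ± 305 in testis embryos and 10520 ± 1028 in cauda embryos (SD, n = 34 each), a difference of 118 (two-sided permutation within sessions, p = 0.795). Leaving it out, the cauda mean was 10691 ± 243 and the difference was -53.2 (permutation p = 0.424). Pou5f1 and Nanog, core pluripotency factors, and Cdx2, a trophectoderm factor, were all present: Pou5f1 averaged 1305 and 1331 TPM, Nanog 845 and 863 TPM, and Cdx2 73.6 and 94.7 TPM in testis and cauda embryos.

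Of 11790 genes tested, 133 (1.13%) were higher and 53 (0.45%) lower in testis than in cauda morulae at an adjusted p under 0.05 (limma on log2(TPM + 1) with session as a term, Benjamini-Hochberg over all genes), 1.58% together. Leaving out the low library, 288 (2.44%) were higher and 271 (2.3%) lower of 11787 tested, 4.74% together, and these included all 133 and all 53. The higher genes had a median difference of 0.65 and the lower ones of -0.54 on the log2 scale, where all genes had a median of 0.04. Most changes were thus well under 2-fold, between 0.22 and 1.65 for the higher genes and between -0.28 and -1.58 for the lower ones. At an unadjusted p under 0.05 there were 2009 genes.

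Socs3, a feedback inhibitor of cytokine and STAT3 signalling (mm10, chromosome 11, 117966079 to 117970336), was among the genes with the strongest rise. It ranged from 20.4 to 301 TPM with a median of 95.6 TPM in testis embryos, and from 0.74 to 216 TPM with a median of 37.2 TPM in cauda embryos. The ranges overlapped, with 31 of 34 testis embryos above the cauda median. Socs3 was 2.53-fold higher, which is 1.34 ± 0.28 on the log2 scale (SE, limma adjusted p = 0.0105), and 1.20 without the low library (adjusted p = 0.00411). The difference was 1.5, 2.49 and 1.55 in sessions B, C and D but 0.13 in session A. The value of session B includes the low library, where Socs3 was at 0.91 TPM. Pim1, a kinase gene induced by STAT factors, also rose, to 7.37 ± 3.26 TPM against 4.84 ± 3.58 TPM (SD, n = 34 each; difference 0.69 ± 0.19, limma adjusted p = 0.0468). Of the 18 tested members of the list of LIF, JAK and STAT genes, Socs3 and Pim1 were the 2 that passed. Over all genes 1.13% rose, and the list's median was -0.14.

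The start region of Socs3 (the start in the RefSeq table lies inside the gene's full span) is shown because it holds a palindromic STAT motif, TTCNNNGAA, in capitals, which begins 154 bases before the annotated start (RefSeq, GRCm38.p6, chr11:117969317-117969616, minus strand, 250 bases before to 50 after the start).
Socs3: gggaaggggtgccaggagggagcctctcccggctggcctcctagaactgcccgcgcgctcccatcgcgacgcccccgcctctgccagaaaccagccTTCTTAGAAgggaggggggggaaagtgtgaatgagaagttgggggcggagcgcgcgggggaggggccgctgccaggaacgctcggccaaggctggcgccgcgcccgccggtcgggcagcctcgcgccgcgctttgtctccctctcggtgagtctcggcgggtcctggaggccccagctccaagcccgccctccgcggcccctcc
Of 32851 such windows in the table, 8.30% hold this motif on either strand. Among genes with a window it was found for 7 of 99 called higher (7.07%), 2 of 38 called lower (5.26%) and 696 of 8911 tested (7.81%). The share among the higher genes was thus close to that of all genes tested, and the match is a description of the sequence.

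Elovl3, an elongase of very long fatty acids (chromosome 19), had the largest rise. It ranged from 0 to 120 TPM with a median of 15.6 TPM in testis embryos and from 0 to 61.7 TPM with a median of 3.94 TPM in cauda embryos. The difference was 1.65 ± 0.38 (log2, SE, limma adjusted p = 0.0201), it was between 1.07 and 1.12 in 3 sessions, and it reached 3.44 in session C. Hspa8, the constitutive cytosolic Hsp70 chaperone and one of the most abundant transcripts, had the smallest unadjusted p. It ranged from 6996 to 11994 TPM with a median of 9370 TPM in testis embryos and from 2662 to 11324 TPM with a median of 7268 TPM in cauda embryos. In all, 32 of 34 testis embryos lay above the cauda median. The rise of Hspa8 was small (1.28-fold, 0.35 ± 0.07 on the log2 scale, limma adjusted p = 0.00872), at 0.25, 0.39, 0.39 and 0.40 in sessions A, B, C and D. The session B values of Elovl3 and Hspa8 include the low cauda library, at 0 and 2662 TPM. For Hspa8 that was the lowest of all cauda embryos. Hspa2, an Hsp70 of germ cells, rose 2.27-fold to 27.6 ± 24.0 TPM against 12.9 ± 14.4 TPM. Of the 23 heat shock genes tested these 2 passed, where 1.13% of all genes rose, and the median of the list was 0.04 with 13 positive. Without the low library Dnajb6 rose as well, where 2.44% of all genes did. The median was then -0.015 with 10 positive.

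The other genes with the largest rises were mostly lowly expressed. Slfn2, a regulator of immune cell quiescence, averaged 5.89 ± 4.53 TPM in testis embryos and 2.41 ± 3.24 TPM in cauda embryos. Ehd2, which stabilises caveolae, averaged 7.75 ± 9.33 and 2.4 ± 2.8 TPM, and Unc45b, a myosin chaperone, 7.9 ± 5.92 and 3.54 ± 3.64 TPM. Icam1, a cell adhesion molecule, averaged 15.6 ± 11.4 and 6.96 ± 5.71 TPM, and Mep1b, a metalloprotease, 25.9 ± 17.0 and 12.9 ± 8.89 TPM. Gata1, the blood cell transcription factor, averaged 67.0 ± 40.8 TPM in testis embryos against 35.5 ± 19.0 TPM in cauda embryos, with 28 of 34 testis embryos above the cauda median. Nup62cl, St3gal2 (a sialyltransferase) and Prr19 completed the 12 largest, with differences of 1.19, 0.93 and 0.92. For all 12 the difference was positive in each of the 4 sessions and the limma adjusted p lay between 0.0105 and 0.0405.

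Dppa1 had the largest fall. The gene lies on chromosome 11, 46607010 to 46629274, is transcribed in early embryos and stands in the trophectoderm list used here. It ranged from 0 to 49 TPM with a median of 8.2 TPM in testis embryos and from 1.79 to 152 TPM with a median of 24.3 TPM in cauda embryos. The groups overlapped, with 6 of 34 testis embryos above the median of cauda embryos. Dppa1 was 2.98-fold lower, a difference of -1.58 ± 0.37 (log2, SE, limma adjusted p = 0.0202), and -1.53 without the low library. Id2, an inhibitor of basic helix-loop-helix factors and an early marker of outer cells, ranged from 0 to 24.3 TPM with a median of 1.62 TPM in testis embryos and from 0 to 45.5 TPM with a median of 7.7 TPM in cauda embryos. It was listed at 0 in 15 testis embryos and in 6 cauda embryos. Its difference was -1.40 ± 0.38 (limma adjusted p = 0.0402) and -1.49 without the low library, and both genes were lower in each of the 4 sessions.

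The start region of Dppa1 is shown because this gene has the largest fall and a motif of AP-2 factors, which act in trophectoderm (letters GCCNNNGGC, in capitals; GRCm38.p6, chr11:46629225-46629524, minus strand).
Dppa1: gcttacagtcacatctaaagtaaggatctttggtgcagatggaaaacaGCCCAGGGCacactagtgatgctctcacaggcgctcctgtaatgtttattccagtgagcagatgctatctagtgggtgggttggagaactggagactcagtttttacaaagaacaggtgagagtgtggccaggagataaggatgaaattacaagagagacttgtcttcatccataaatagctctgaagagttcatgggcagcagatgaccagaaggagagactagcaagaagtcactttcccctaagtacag
The motif begins 202 bases before the start. It occurs in 16.6% of all windows, and among genes with a window in 38 of 99 called higher (38.4%), 11 of 38 called lower (28.9%) and 2538 of 8911 tested (28.5%). A gene was counted when any of its windows held the motif, here and for Socs3, so shares of genes and of windows are unlike measures. The share among the lower genes, which include Dppa1, was close to that of all genes tested. That among the higher genes lay above it, which was not tested, and the match is a description of the sequence. A TEAD motif, GGAATG, was searched on both strands in the same way and occurs in 14.7% of all windows. Among genes with a window it was found for 15 of 99 called higher, 3 of 38 called lower and 1263 of 8911 tested (14.2%).

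Several metabolic and cytoskeletal genes were lower with testis sperm. Aldh18a1, an enzyme of proline synthesis, averaged 4.69 ± 8.29 TPM in testis embryos and 10.3 ± 8.77 TPM in cauda embryos. Cpt2, which imports fatty acids into mitochondria, averaged 5.51 ± 5.0 and 13.4 ± 10.8 TPM, and Tcn2, the carrier of vitamin B12, 11.8 ± 8.43 and 22.9 ± 14.5 TPM. Reep5, a shaper of the endoplasmic reticulum, averaged 6.71 ± 5.7 TPM against 16.7 ± 12.9 TPM. Zyx (zyxin), a focal adhesion protein, averaged 7.09 ± 4.96 TPM in testis embryos against 13.5 ± 6.81 TPM in cauda embryos, with 3 of 34 testis embryos above the cauda median. Casp9, the initiator caspase of the mitochondrial death pathway, averaged 3.73 ± 2.85 against 8.04 ± 5.33 TPM. Patl2, Tmem180, Kdelr3 (a receptor that returns proteins to the endoplasmic reticulum) and Pde8a (a cyclic AMP phosphodiesterase) had differences of -1.02, -1.01, -0.83 and -0.80. The limma adjusted p of the 12 largest falls lay between 0.0202 and 0.0481, and 10 of the 12 were lower in each session. The exceptions were Cpt2 and Zyx, at 0.08 and 0.14 in session B, which holds the low cauda library.

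**Figure D1:**
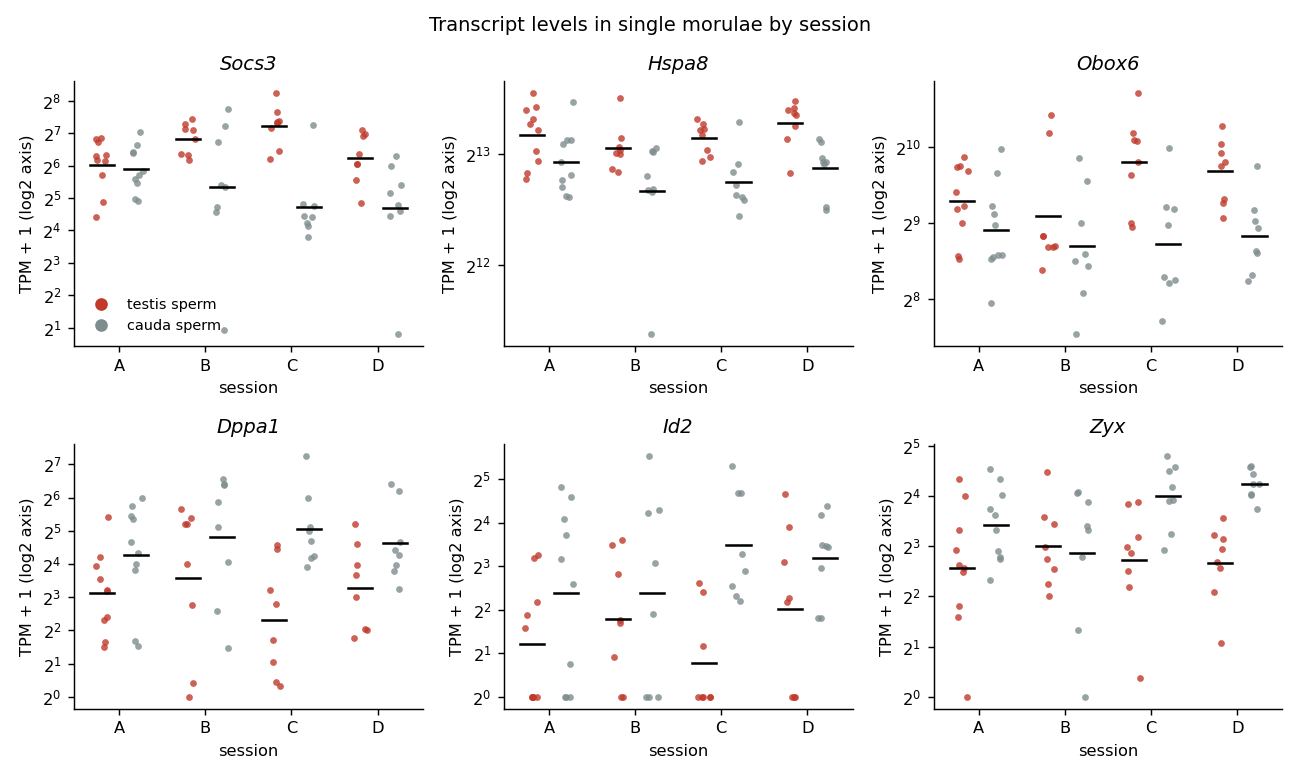
Levels of 6 genes in each embryo by session, as TPM + 1 on a log2 axis; dots are embryos (testis sperm left, cauda sperm right in each session) and bars are geometric means of TPM + 1. Socs3, Hspa8 and Obox6 are shifted up and Dppa1, Id2 and Zyx down in testis embryos (Zyx not in session B), with overlap in every session except for Zyx in session D, where all testis embryos lie below all cauda embryos.

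The called genes mostly kept their direction in each session, while medians varied in size. Of the 133 higher genes, 131 were higher in all 4 sessions, and of the 53 lower genes, 50 were lower in all 4, against 2524 of 11790 genes tested that kept 1 direction in all 4. The calls were made on these same sessions, so these counts describe them. The median difference of the higher genes was 0.38, 0.72, 0.87 and 0.52 in sessions A, B, C and D, and that of the lower genes was -0.32, -0.45, -0.70 and -0.70. Without the low library, session B gave 0.47 and -0.50.

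The calls depended on single sessions. With session C left out, limma called 0 of 11767 genes (1133 had an unadjusted p under 0.05; smallest adjusted p = 0.279), and the medians of the 133 and 53 genes were 0.56 and -0.50. With session D left out, it called 0 of 11846 (1730 had an unadjusted p under 0.05; smallest adjusted p = 0.0577), but with the low library also left out 76 were higher and 35 lower. Without session C and the low library, 0 were higher and 1 lower. Without session A, 56 were higher and 24 lower. Without session B, 171 were higher and 158 lower. A test of whether the testis effect differed between sessions called 0 of 11790 genes (moderated F-test of limma over session terms; 881 had an unadjusted p under 0.05, smallest adjusted p = 0.318). In session C the library numbers of the testis embryos in the labels do not run on into those of the cauda embryos, as they do in the other 3 sessions. The labels do not say whether this marks separate sequencing runs, so within that session library number and sperm source cannot be told apart.

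**Figure D2:**
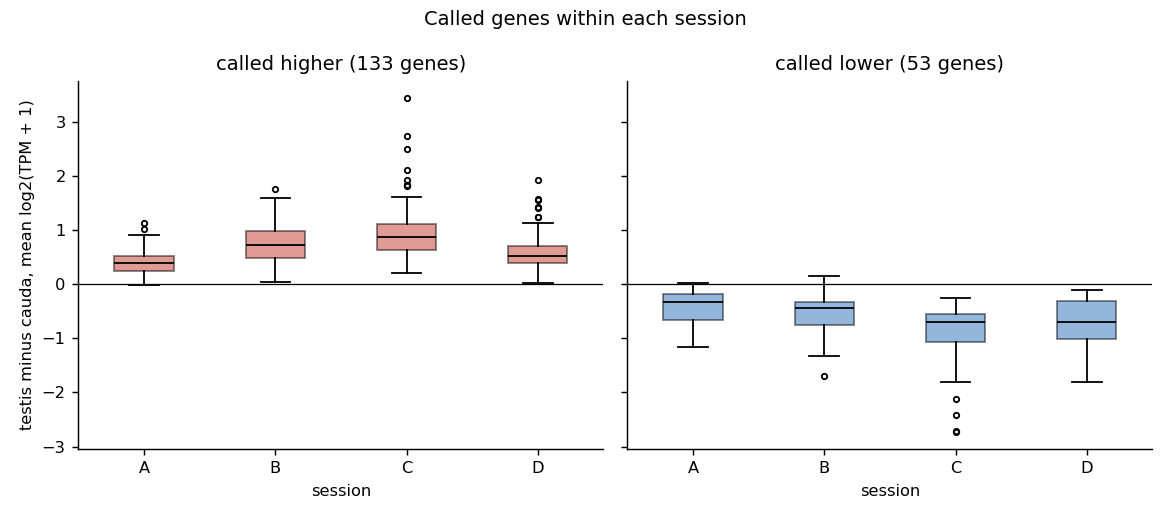
Difference between testis and cauda embryos (mean log2(TPM + 1)) within each session for the 133 genes called higher and the 53 called lower; boxes span the middle 50% of genes, lines are medians. Medians are farthest from 0 in session C for the higher genes (0.87) and in sessions C and D for the lower genes (-0.70 each).

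Among genes of cell fate, 2 trophectoderm genes fell and 2 pluripotency genes rose with testis sperm. Of 22 trophectoderm genes tested, Dppa1 and Id2 fell (where 0.45% of all genes did), 9 were positive and the median was -0.25. Over all genes 56.6% were positive with a median of 0.04, and 48.0% with a median of -0.01 without the low library, and the counts of each list below stand against these shares. The list's most abundant members were Ly6a, at 1219 ± 469 TPM in testis embryos and 1540 ± 656 TPM in cauda embryos (adjusted p = 0.93 in limma), and Cldn4, a tight junction claudin, at 782 ± 236 and 781 ± 223 TPM (adjusted p = 0.797 in limma). With the low library left out, 4 trophectoderm genes fell, where 2.3% of all genes did. Besides Dppa1 and Id2 these were Gata3, a trophectoderm transcription factor (-0.79 ± 0.25, limma adjusted p = 0.05), and Krt8, a keratin of the outer layer (-0.82 ± 0.22, limma adjusted p = 0.023). Since each library is a whole embryo, fewer cells of a type and less RNA per cell cannot be told apart.

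Of 27 pluripotency genes, 2 rose (where 1.13% of all genes did), 21 were positive and the median was 0.22. Dppa4, a chromatin factor of pluripotent cells, averaged 528 ± 96.6 TPM in testis embryos and 453 ± 86.0 TPM in cauda embryos (0.22 ± 0.06, limma adjusted p = 0.0481), and Nr5a2, a nuclear receptor of the early embryo, 25.6 ± 14.1 and 16.8 ± 8.19 TPM (0.59 ± 0.16, limma adjusted p = 0.0402). Dppa5a and Dppa3, the most abundant members, differed by -0.01 and 0.16 and did not pass. When the low library was left out, Klf4, Esrrb, Sall4 and Lin28a rose as well, with differences of 0.51, 0.38, 0.31 and 0.46. This made 6, where 2.44% of all genes rose. None of 16 primitive endoderm genes passed (median -0.01). Without the low library the basement membrane collagens Col4a1 (-0.86 ± 0.25) and Col4a2 (-0.79 ± 0.23) of this list fell (both limma adjusted p = 0.0342), where 2.3% of all genes did. Gata6 and Cited1 were the most abundant, at 101 ± 40.7 and 110 ± 52.6 TPM and at 370 ± 139 and 287 ± 113 TPM.

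Lists of earlier stages had positive medians, with 1 gene called in each, where 1.13% of all genes rose. Among genes transcribed in the burst at the 2-cell stage, 14 of 15 tested members were positive and the median was 0.54, the highest of the lists. The member that passed was Sp110, a nuclear body protein, at 594 ± 311 TPM in testis embryos and 370 ± 203 TPM in cauda embryos (0.73 ± 0.17, limma adjusted p = 0.0201, higher in 4 sessions). Leaving out the low library, 12 of the 15 were positive and the median was 0.37. Of 27 oocyte genes 21 were positive, with a median of 0.20, and Obox6, a homeobox gene of oocytes and early embryos, rose to 765 ± 328 TPM against 486 ± 222 TPM (0.66 ± 0.15, limma adjusted p = 0.0145). Without the low library 18 oocyte genes were positive and the median was 0.18. Padi6 then rose as well, making 2 where 2.44% of all genes rose. Khdc3, of the maternal subcortical complex, was the list's most abundant gene at 2168 ± 457 and 2157 ± 461 TPM. Several of these genes belong to families of near-identical copies, whose reads the authors' counting may have split.

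Mitochondrial and cholesterol genes lay below the median of all genes. The counts of genes that fell stand beside 0.45% of all genes, and 2.3% without the low library. Of 75 nuclear genes of oxidative phosphorylation 10 were positive, the median was -0.12 and 3 fell, all subunits of complex I. Ndufb4 averaged 148 ± 40.3 TPM in testis embryos and 206 ± 112 TPM in cauda embryos, Ndufb9 376 ± 90.5 and 454 ± 98.3 TPM, and Ndufb10 244 ± 60.1 and 319 ± 144 TPM (limma adjusted p between 0.0385 and 0.0403), and 9 of the 75 fell when the low library was left out. Mrpl24 fell among 76 mitochondrial ribosomal proteins (median -0.05). Of 30 cholesterol synthesis genes 6 were positive and the median was -0.23, with none passing. In the fit that leaves out the low library, 6 of them fell, Insig1, Mvk, Pmvk, Mvd, Nsdhl and Acat2, by 0.57 to 0.91 on the log2 scale. Of 26 antioxidant genes 7 were positive (median -0.16), none passed, and without the low library 4 fell: Nfe2l2, Hmox1, Prdx2 and Txnrd1. Among 28 genes of glucose use, Mpc2, a subunit of the mitochondrial pyruvate carrier, rose to 258 ± 87.1 TPM against 189 ± 62.5 TPM, where 1.13% of all genes rose. The glycolytic enzymes Eno1 (-0.53) and Pkm (-0.81) fell when the low library was left out.

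In other lists few genes passed or none, and several gained calls without the low library, where 4.74% of all genes were called. None of 82 cytosolic ribosomal proteins (median -0.01), 44 proteasome subunits (-0.04), 42 cell cycle genes (0.12), 26 Trp53 targets (0.17, 23 positive) or 29 stress response genes (-0.04) passed, and neither did any of 28 Hippo and TEAD genes (0.10), 27 of adhesion and polarity (-0.08) or 18 of cavitation (0.08). Without the low library the median of the cavitation list was -0.04 and Cldn7, a claudin, fell (-0.37). In that fit Amotl1 of the Hippo list rose (0.69). Of the adhesion list Crb3, a polarity protein, rose (0.56), and Vcl (vinculin, -0.63) and the small GTPase Cdc42 (-0.18) fell. Asns, Mthfd2 and Xbp1 of the stress list fell, by 0.73 to 0.89 on the log2 scale. Of the cell cycle list Ccnb1 (cyclin B1) rose (0.36), and Cdk4 (-0.24) and Pcna (-0.23) fell. The ribosomal, proteasome and Trp53 target lists had no call in that fit either. With all libraries, single members passed in other lists of 18 to 32 tested genes, where 1.13% of all genes rose and 0.45% fell. Grb2, an adaptor of receptor kinases (0.55 ± 0.14), Clk2, a kinase of splicing factors (0.77 ± 0.20), and Hnrnpul2 (0.51 ± 0.14) rose. So did Mta3 of the NuRD complex (0.33 ± 0.09), Nhej1, an end-joining factor (0.87 ± 0.19), and Amd1 of polyamine synthesis (0.31 ± 0.07). Inpp5f, a phosphoinositide phosphatase, rose too (0.47 ± 0.13), while Mphosph8, a reader of H3K9 methylation, fell (-0.47 ± 0.13). None of 28 Polycomb (median 0.13, 22 positive), 25 SWI/SNF (0.20, 20 positive), 19 DNA methylation (0.03), 13 eIF3 (0.01), 20 small RNA machinery (0.09) or 20 germline genes (0.14) passed, and the 24 genes of H3K9 heterochromatin, with Mphosph8, had a median of 0.13 with 21 positive. Without the low library each of these lists gained 1 or 2 calls, beside 4.74% of all genes called. Such counts are a description and no result about the lists. The lists of Mta3, Clk2, Inpp5f and Amd1 gained calls as well in that fit. Hdac5, Sf3b1, Clk3 and Igf2r of these rose, and Srm and Oaz2 fell. In the former lists the added calls were as follows. Kdm2b (Polycomb, 0.48), Arid1a (SWI/SNF, 0.44), Ehmt1 (an H3K9 methyltransferase, 0.40), Eif3a (0.22), Lin28a (small RNA machinery, 0.46) and Dazl (germline, 0.65) rose, and Uhrf1 (-0.82) and Tdg (-0.93) of DNA methylation fell.

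**Figure D3:**
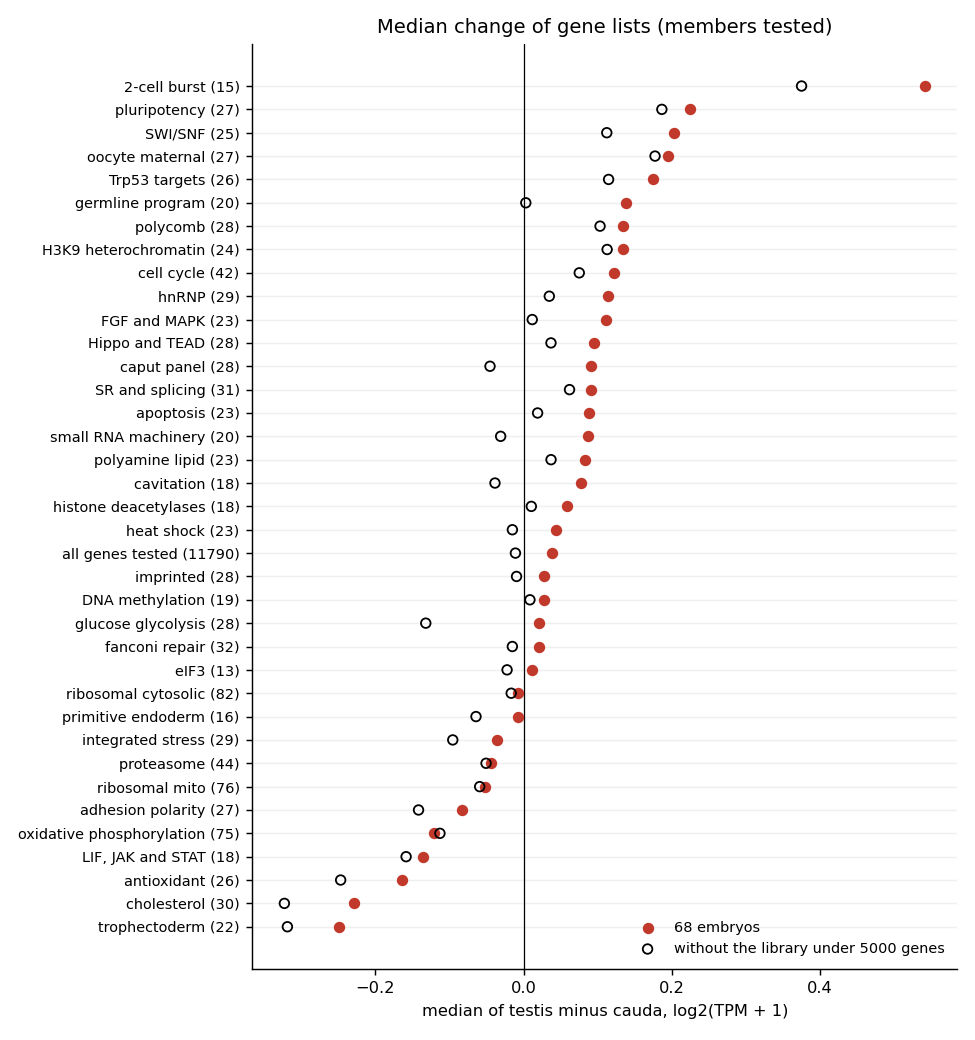
Median difference between testis and cauda morulae for each gene list with at least 10 members tested (number tested in brackets), on the log2(TPM + 1) scale; filled dots use 68 embryos and open circles leave out the low library. Among filled dots the 2-cell burst list is highest (0.54) and the trophectoderm list lowest (-0.25), among open circles the cholesterol list is lowest (-0.32, as is trophectoderm to 2 decimals), and the open circles mostly lie to the left of the filled dots.

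The genes that differed share a property that was not used to call them, namely how their level changes with stage in other embryos. For each gene the mean log2(TPM + 1) of 29 cauda blastocysts was set against that of 33 cauda 4-cell embryos, none of which is among the 68 morulae. Of the 133 genes higher with testis sperm, 130 (97.7%) were lower in blastocysts than in 4-cell embryos, with a median stage difference of -2.61. Of the 53 genes lower with testis sperm, 46 (86.8%) were higher in blastocysts, with a median of 1.57. Over all 11790 genes 50.2% were lower in blastocysts, with a median of -0.01. Against the 31 cauda morulae of the caput set in place of the 4-cell embryos, 124 of the 133 were lower in blastocysts, and 47 of the 53 were higher. For the calls made without the low library the counts were 279 of 288 and 247 of 271. Socs3 averaged 6.88 ± 5.49 TPM in cauda blastocysts and 257 ± 88.5 TPM in cauda 4-cell embryos, and Obox6 10.9 ± 16.5 and 2000 ± 312 TPM. Dppa1 averaged 633 ± 186 TPM in cauda blastocysts and 0.33 ± 0.6 TPM in cauda 4-cell embryos, and Id2 847 ± 286 and 1.34 ± 3.31 TPM. Hspa8 had similar means at both stages, 6995 ± 1690 and 6613 ± 1119 TPM.

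**Figure D4:**
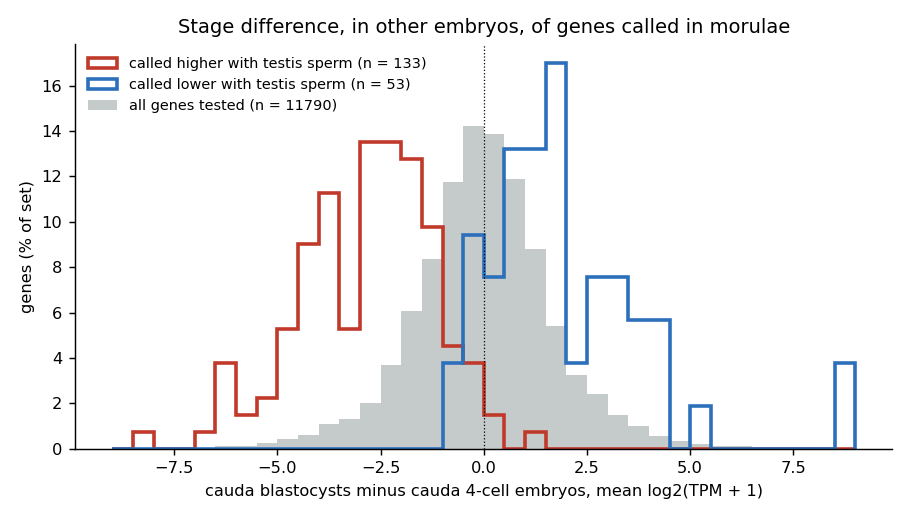
Share of genes (% of each set) by the difference between cauda blastocysts and cauda 4-cell embryos in mean log2(TPM + 1), for genes called higher (133) or lower (53) in testis morulae and for all genes tested (11790). The higher set lies left of 0 (median -2.61), the lower set mostly right of it (median 1.57), and all genes are centred near 0.

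The same comparison can be read per embryo. A stage index was formed from the 300 genes with the largest rise and the 300 with the largest fall between cauda 4-cell embryos and cauda blastocysts, as the mean log2(TPM + 1) of the rising genes minus that of the falling ones. It was added after the pattern of the single genes was seen, and it is given with no test. It lay between -5.34 and -4.51 in cauda 4-cell embryos and between 3.81 and 5.31 in cauda blastocysts. In morulae it ranged from -2.68 to 0.39 with a median of -0.59 in testis embryos and from -1.28 to 1.18 with a median of 0.15 in cauda embryos. With all libraries, 29 of the 34 testis embryos lay below the cauda median and 8 below the lowest cauda embryo, of which 0, 2, 4 and 2 were from sessions A, B, C and D. Within sessions the medians of testis and cauda embryos were -0.45 and -0.03 in session A, 0.09 and -0.05 in session B, -1.28 and 0.56 in session C, and -0.85 and 0.15 in session D. In session B, which holds the low library (index -0.40), the medians thus stood in the opposite order, with 2 of 8 testis embryos below the cauda median, while the means were -0.46 in testis and 0.03 in cauda embryos. That order rested on the low library: leaving it out, the cauda median of session B was 0.29 and 7 of 8 testis embryos lay below it. In the caput set the medians were -0.28 in caput and -0.35 in cauda morulae. The part of the index in the differences of single genes was not tested.

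Caput sperm, which have entered the epididymis but not completed it, were compared with cauda sperm in other embryos. In the separate set of caput and cauda morulae, 91 genes (0.79%) were higher and 8 (0.0695%) lower with caput sperm of 11519 tested (0.859% together). None of the 133 genes higher with testis sperm was among the 91, and 1 of the 53 lower genes, Pde8a, was among them with the opposite sign (0.84 ± 0.22, limma adjusted p = 0.0379). Of the 131 higher genes tested in the caput set, 39 were positive there with a median of -0.06, and over all genes tested in both sets the median was -0.05. Of the 91 genes higher with caput sperm, 44 were positive with testis sperm, with a median of -0.02, and without the low library 35 were positive with a median of -0.07. The 2 sets share no libraries, but they were made in different sessions.

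The difference of the effects was tested in a single model over both sets. It was called for 82 of 12834 genes (0.639%), 30 (0.234%) with a more positive effect of testis than of caput sperm and 52 (0.405%) with a more negative one, and without the low library for 78 and 113. After rescaling the libraries by median ratios the counts were 12 and 80. Cebpb, a transcription factor, had the most negative difference among the named genes. It averaged 3.48 ± 8.55 TPM in testis embryos and 6.72 ± 9.51 TPM in their cauda embryos (-0.89 ± 0.34, adjusted p = 0.154 in limma), but 5.9 ± 6.26 TPM in caput embryos against 0.386 ± 1.95 TPM in theirs (2.01 ± 0.27). The difference of the effects was -2.90 ± 0.45 (limma adjusted p = 1.06e-05). Pcbp1, an RNA-binding protein, averaged 486 ± 282 and 584 ± 342 TPM in testis and cauda embryos, against 762 ± 308 and 255 ± 68.1 TPM in caput and cauda embryos of the other set (difference -1.66 ± 0.22, limma adjusted p = 8.02e-08). Within the testis set Pcbp1 differed by -0.71, 0.58, 0.41 and -0.87 in sessions A, B, C and D, so its sign turned between sessions. The cauda embryos of the 2 sets were themselves unlike for these genes. They averaged 584 TPM in the testis set and 255 TPM in the caput set for Pcbp1, and 6.72 and 0.386 TPM for Cebpb. The part of these cauda levels in the differences of effects was not tested. Eif3b, a subunit of initiation factor eIF3, had a difference of -1.72 ± 0.25, and Dapk3, a death-associated kinase, of -2.15 ± 0.45.

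A panel of 28 genes named before as higher with caput sperm in embryos of this series was followed in full. With testis sperm Socs3 passed, where 1.13% of all genes rose. In all, 16 of 28 were positive, and the median was 0.09 (-0.05 without the low library), against 0.04 over all genes (-0.01 without it). With caput sperm 20 of the 28 were called higher in morulae, where 0.79% of all genes were, and the median was 0.95. Both values were fixed in part by the choice of the panel. The difference of effects was called as negative for 12 of them, where it was for 0.405% of all genes. The 12 were Pcbp1, Eif3b, Dapk3, Cebpb, Fancf, Hnrnpu, Hnrnpab, Yrdc, Sox21, Ybx1, Hdgf and Arf6. Because caput results chose the panel, these 12 are a description and not independent evidence. Klf2, a factor of naive pluripotency, was the panel gene nearest to a call after Socs3, at 47.4 ± 33.3 TPM in testis embryos and 34.8 ± 27.5 TPM in cauda embryos (0.69 ± 0.23, 95% interval 0.23 to 1.15, adjusted p = 0.0992 in limma). For Pcbp1 the 95% interval of the testis effect was -0.52 to 0.16, and for Eif3b -0.46 to 0.23. Both lay below the caput effects of 1.49 and 1.60, which came from other sessions. The intervals measure the spread between embryos. Within each single session the difference of Pcbp1 lay outside its interval, so that interval does not cover the spread between sessions. Socs3 had the reverse pattern, with a testis effect of 1.34 and a caput effect of 0.13 ± 0.28, but the difference did not pass (1.21 ± 0.41, adjusted p = 0.144 in limma).

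**Figure D5:**
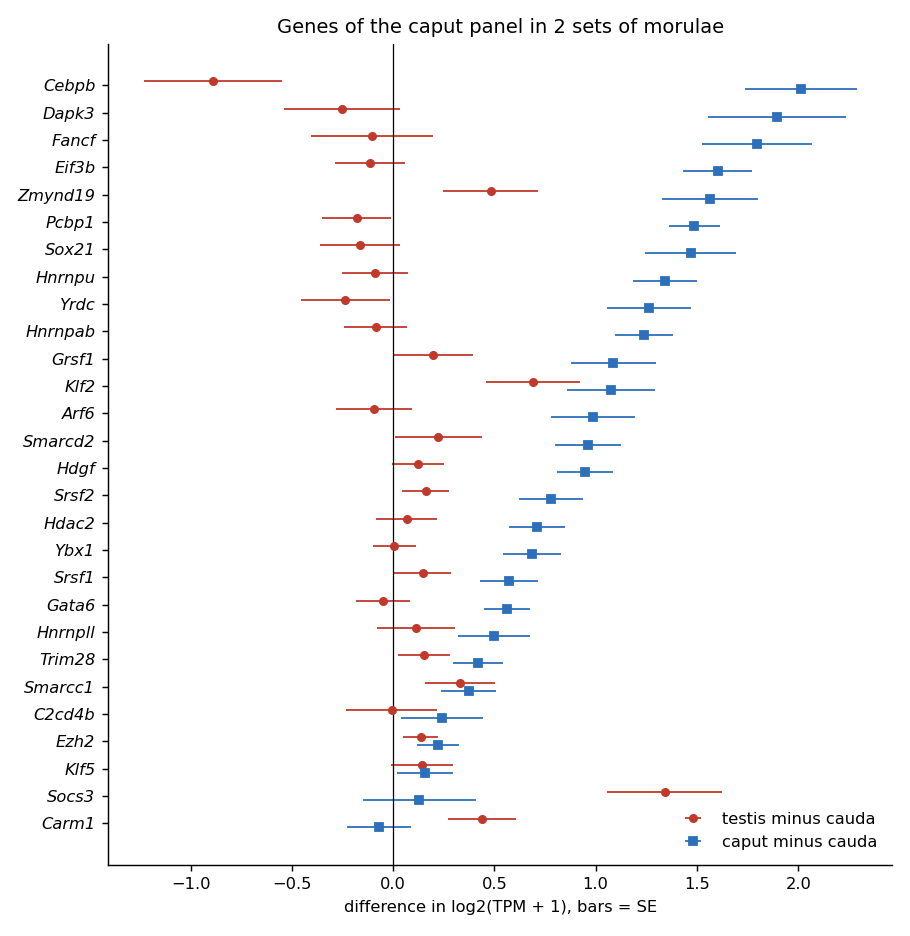
Differences on the log2(TPM + 1) scale with SE for 28 genes named before as higher with caput sperm; circles are testis minus cauda morulae (34 and 34 embryos), squares caput minus cauda morulae of another set (29 and 31). Genes run from the largest caput effect (Cebpb, 2.01) at the top to the smallest (Carm1, -0.07), and Socs3 stands out with the largest testis effect (1.34).

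Genes with a more positive effect of testis sperm were led by Nppb, a natriuretic peptide, at 29.7 ± 35.5 TPM in testis embryos and 13.7 ± 15.9 TPM in cauda embryos, against 31.4 ± 63.7 and 36.1 ± 52.4 TPM in caput and cauda embryos of the other set (difference 2.40 ± 0.61, limma adjusted p = 0.0309). Neither effect of Nppb passed by itself. Slfn2, Plcd3 (a phospholipase C), Nhej1, Larp4 (a binder of poly(A) tails) and S1pr2 (a sphingosine phosphate receptor) rose with testis sperm and had differences between 0.93 and 1.43, and Tmem86a and Purb had 1.16 and 0.90 without a call of their testis effect. Kctd6, Chpt1 (a phosphatidylcholine enzyme), Fancf (of the Fanconi complex) and Ptov1 had negative differences of -1.99, -1.77, -1.90 and -1.65.

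At the other stages the testis comparison gave few calls or none. In 4-cell embryos 1 of 11471 genes was higher (Isca2, an iron-sulfur cluster assembly factor, 0.64 ± 0.12) and 1 lower (Wdr5b, -1.20 ± 0.23, both limma adjusted p = 0.0138; 0.00872% of genes each, 0.0174% together). In blastocysts limma called 0 of 12062 genes (0%; 568 had an unadjusted p under 0.05). Of the 57 blastocysts 10 came from sessions with 1 group (3 testis and 7 cauda embryos), so with session as a term 47 inform this comparison (25 testis and 22 cauda embryos). The 133 genes had a median testis effect of -0.07 in 4-cell embryos (132 tested, 40 positive) and of -0.02 in blastocysts (121 tested, 55 positive), and the 53 genes medians of 0.10 (47 tested) and -0.09 (53 tested). Over all genes also tested in morulae, the medians were -0.03 in 4-cell embryos (4750 of 10714 positive) and -0.07 in blastocysts (3616 of 11063). The median of the 133 genes thus lay below that of all genes in 4-cell embryos and above it in blastocysts. The morula effect differed from the 4-cell effect for 79 of 13085 genes (0.604%), 65 more positive (0.497%) and 14 more negative (0.107%). Among them were Socs3 (1.34 in morulae, -0.34 in 4-cell embryos, difference 1.68 ± 0.33, limma adjusted p = 0.004), Mep1b (difference 1.4 ± 0.28), Gata1 (1.14 ± 0.27), Obox6 (0.73 ± 0.16) and Hspa8 (0.37 ± 0.09). Grb2 was 0.55 in morulae and -0.57 in 4-cell embryos (difference 1.12 ± 0.21). The morula effect differed from the blastocyst effect for 0 of 13391 genes in limma (0%; 1299 had an unadjusted p under 0.05), with a smallest adjusted p of 0.0933, so a difference between morulae and blastocysts was not shown.

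Sex did not differ detectably between the groups. Summed TPM of Y-linked genes was at most 1.38 TPM in 34 embryos and at least 36.6 TPM in the other 34, and Xist, the X inactivation transcript, had a median of 20.5 TPM without and 0.47 TPM with Y-linked transcripts. Y-linked transcripts were found in 19 of 34 testis embryos (55.9%) and 15 of 34 cauda embryos (44.1%; odds ratio 1.6, two-sided Fisher's exact p = 0.467). Of the 7 Y-linked genes tested none passed, and Eif2s3y, the most abundant, averaged 30.4 ± 31.3 and 26.5 ± 38.1 TPM.

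Markers of other cells were mostly near 0. None of 19 epididymis genes reached the level for testing, and 10 of them were at 0 in all 68 embryos. Of 21 sperm and testis germ cell genes 17 averaged under 1 TPM in both groups, 7 (among them Prm3, Tnp1 and Akap4) were at 0 throughout, and their summed TPM ranged from 25.7 to 108 in testis embryos and from 0.57 to 89.3 in cauda embryos, mostly from Odf2 (43.1 and 44.2 TPM). The Sertoli and Leydig sum ranged from 2.91 to 245 TPM and from 0 to 382 TPM, mostly from Rhox5, which early embryos also express. The blood and connective tissue sum ranged from 2.97 to 146 TPM and from 0 to 90.3 TPM, mostly from Hba-a2, with Ptprc and Col3a1 at 0. The cumulus and granulosa sum ranged from 364 to 1187 TPM and from 434 to 2301 TPM, almost all from Gja1, a gap junction gene of embryos too, with Fshr, Ptx3 and Inhba at 0. Amhr2 of this list rose (73.4 ± 49.0 against 43.9 ± 26.8 TPM), and it averaged 303 ± 71.2 TPM in cauda 4-cell embryos. The part of these cells in the results was not tested.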

How the data were processed

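Per the labels, single embryos were sequenced by Smart-seq2. The authors deposited TPM values, and Bowtie and build mm10 are named in the submitters' processing notes without versions. The counting tool and annotation are not given in the sources used here. The series has 12 tables, of which 4 were used, with 23845 genes and 252 libraries. Each library sums to about the same total, so depth is unknown and precision was taken from the spread between embryos. A total of 27 symbols had been stored as dates and were restored, and 23767 genes matched RefSeq positions on the same build.

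Groups and sessions came from the labels. A gene was tested when at least 1 TPM was reached in as many embryos as 50% of the smaller group (17 for the main comparison). Log2(TPM + 1) was fitted with limma 3.58.1 in R 4.3.3 (group and session as fixed effects, intensity trend, robust variances, Benjamini-Hochberg adjustment over all genes, called under 0.05). The added 1 understates changes of low genes. Fold changes come from the fitted change and are ratios of geometric means of TPM + 1, and means with SD are plain TPM over all embryos of a group, low library included. Differences of effects were contrasts in 1 model with sessions nested in each set. Genes per embryo were compared by 100000 permutations within sessions, in Python 3.11.15. Scripts were tested on simulated data. Motifs were searched in RefSeq windows (GRCm38.p6).

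The comparison, gene lists and named genes were chosen with earlier results of these data known. Named genes were, among called genes with at least 5 TPM in the higher group and without predicted symbols, the 12 largest changes in each direction, up to 4 called members and the 2 most abundant of each list (given for the lists described), the caput panel, Y-linked genes and the 8 largest differences of effects each way. Genes named beyond this rule, such as those of the calls without the low library, were chosen after their values were seen.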

Additional observations from a re-analysis of the deposited data

Results flagged for a closer look

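Differences between the testis effect and the caput effect in morulae were found for 30 genes in the positive and 52 in the negative direction by the test of the difference itself. By this test the testis effect was the more positive one for Nppb (2.40 on the log2 scale), Slfn2 (1.43), Plcd3 (1.22), Nhej1 (1.21), Tmem86a (1.16), Larp4 (1.01), S1pr2 (0.93) and Purb (0.90). It was the more negative one for Cebpb (-2.90), Dapk3 (-2.15), Kctd6 (-1.99), Fancf (-1.90), Chpt1 (-1.77), Eif3b (-1.72), Pcbp1 (-1.66) and Ptov1 (-1.65). The morula effect of testis sperm differed from its 4-cell effect for 65 genes in the positive and 14 in the negative direction. The caput set came from other sessions than the testis set. The 4-cell embryos share the number of session B with the morulae and otherwise came from other sessions. The part of sessions in these differences was not tested.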

How the results depend on the processing

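Counts of genes called in testis against cauda morulae (133 higher, 53 lower) were within 1.5 times of these with a 5 TPM filter, median-ratio rescaling, no trend and the Y-linked level as a covariate. They were 48 and 9 with a pseudocount of 0.1 TPM, 51 and 9 with no filter, 85 and 24 without the session term, 288 and 271 without the low library, 310 and 305 with array weights, and 318 and 245 with genes at 1 TPM as a covariate. They were 56 and 24 without session A, 171 and 158 without session B, 0 and 0 without session C (1133 at an unadjusted p under 0.05 in limma), 0 and 0 without session D (1730), and 0 and 0 with a mean per session and group (4 against 4, 1350). Added after seeing the data: without the low library and session A, B, C or D they were 227 and 308, 171 and 158, 0 and 1, and 76 and 35, and session A, B, C or D alone gave 0 and 0, 0 and 0, 34 and 20, and 1 and 0. The labels do not say that embryo numbers pair the groups. Same-numbered embryos correlated by -0.25 to 0.28 (median 0.03, 8 of 34 above 0.1), and 2 of 34 correlated best with their own number. These correlations cannot show whether the numbers carry a pairing. With the embryo number as a replicate block 18 were higher and 7 lower, and for the difference of effects 5 and 35. The 47 called genes picked by the naming rule kept their sign in every alternative, except Cpt2 (0.084) and Zyx (0.14) in session B alone. They did not all stay called. Without the low library 47 did, with a pseudocount of 0.1 TPM 14, with the replicate block 6, and 0 without session C or without session D. Called genes named outside the rule are not part of this count.

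Counts for the difference of testis and caput effects (30 positive, 52 negative) were 16 positive with a pseudocount of 0.1, 10 positive with no filter, 9 and 28 without the session term, 78 and 113 without the low library, 12 and 80 after rescaling, 336 and 201 with array weights, and 89 and 97 with genes at 1 TPM as a covariate. They were 18 and 30 without session A, 96 negative without session B, 5 and 33 without session C, 8 and 21 without session D, 8 positive without caput session F, 2 and 29 without caput session G, and 175 and 87 without caput session H (caput sessions lettered E to H in the same way). For morulae against 4-cell embryos 39 were negative without the low library. The difference in genes per embryo was -53.2 without it. The causes were not tested. Depth is unknown, which limits calls for low genes.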

Other observations

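Some called genes outside the gene lists share a family or a process; they were picked after their values were seen, so no test of the groups is given. Khdc1a, Khdc1b and Khdc1c, neighbours on chromosome 1 that are transcribed in oocytes and early embryos, averaged 105 ± 48.0, 28.0 ± 10.9 and 104 ± 43.4 TPM in testis morulae, against 65.1 ± 25.1, 20.0 ± 7.2 and 64.4 ± 26.4 TPM in cauda morulae (limma adjusted p = 0.00872, 0.0475 and 0.00872). Trim43b and Trim43c, of an embryonic family on chromosome 9, averaged 1164 ± 363 and 749 ± 411 TPM in testis morulae, against 882 ± 309 and 478 ± 214 TPM in cauda morulae. The members of each family are close copies, so reads may have been split between them. Raet1a and Raet1b, ligands of the immune receptor NKG2D and also close copies, were lower, at 5.08 ± 3.26 and 3.41 ± 2.16 TPM in testis morulae against 8.95 ± 5.94 and 6.37 ± 4.79 TPM in cauda morulae.

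Prc1 and Kif23 of the spindle midzone rose, and averaged 172 ± 48.5 and 123 ± 31.5 TPM in testis morulae, against 122 ± 42.2 and 92.8 ± 28.0 TPM in cauda morulae. The kinetochore motor Cenpe (0.32 ± 0.09) and Ube2c, a ubiquitin enzyme of mitotic exit (0.38 ± 0.10), rose as well, while none of the 42 genes of the cell cycle list passed, and without the low library 1 of them rose (Ccnb1) and 2 fell (Cdk4 and Pcna). Genes of ribosome production, Wdr43, Wdr74, Utp3 and Dcaf13, rose by 0.24 to 0.42 on the log2 scale. Ciart and Nr1d2, repressors of the circadian clock, rose to 59.8 ± 43.5 and 6.1 ± 4.65 TPM in testis morulae, against 33.7 ± 17.1 and 2.63 ± 2.76 TPM in cauda morulae. Of vitamin transport, Cd320, the cell receptor of transcobalamin, rose (0.44 ± 0.12), whereas its ligand Tcn2 fell (-0.94 ± 0.25). Id3 rose to 225 ± 119 TPM in testis morulae against 129 ± 89.5 TPM in cauda morulae, while Id2, of the same family of inhibitors, fell.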
